A study of Mus musculus with 20 samples.

Results

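Vehicle kidney was compared with vehicle bone marrow in a study of oxaliplatin, a platinum drug used against cancer, in mice. The 10 libraries were chosen by their labels, the 5 kidney controls and the 5 marrow controls, out of 20 in the series. The 10 libraries of oxaliplatin-treated mice were not used here. Both tissues were joined by Ensembl gene identifier, which gave 55486 genes with a count in every library, of which 39345 had at least 1 count.

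The mice were C57BL/6 animals given 5% dextrose, the solvent of the drug, intraperitoneally for 8 weeks, and the study's methods give males and females aged 10 weeks. Marrow was spun from leg bones (tibia and femur) taken 6 days after dosing ended, and the day of kidney collection is not given in the sources used here. Kidney RNA was extracted with a PureLink kit and marrow RNA with TRIzol followed by a PureLink column, so tissue and extraction cannot be told apart. The labels call the libraries biological replicates but do not say which kidney and which marrow came from the same mouse. Each library was a bulk library that pooled all cells of the tissue, so fewer cells of a type and less RNA per cell cannot be told apart.

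The kidney filters blood in the glomerulus and then reclaims salt, glucose, amino acids and water along the tubule, work that is paid for mostly by mitochondrial respiration. Bone marrow makes red cells, platelets, granulocytes and lymphocytes from dividing progenitors inside a niche of stromal, endothelial and bone cells. The organs also speak to each other, since the kidney secretes erythropoietin and activates vitamin D and the marrow carries receptors for both endocrine and local growth factors.

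Kidney libraries held 24393007 to 28304953 counts and marrow libraries 31062858 to 39293176. Within a tissue no 2 libraries correlated below 0.979 on log2 values, and across tissues none correlated above 0.590. The common biological coefficient of variation was 9.31% in kidney and 12.03% in marrow. Mitochondrial genes took 3.59 to 3.89% of kidney counts and 0.589 to 0.660% of marrow counts, and hemoglobin genes took 0.0248 to 0.0404% and 2.39 to 3.94%. All 10 libraries had Y-chromosome counts (2031 to 2776 in kidney, 5082 to 5568 in marrow) and few counts of Xist, the RNA that silences an X chromosome in females (0 to 12 and 31 to 71), so none looked female although the methods name both sexes. Levels below are counts per 1000000 counts (CPM) on library totals scaled by the trimmed mean of M-values (TMM), given as mean ± SD with n = 5 in each tissue, and where the 5 libraries are listed they stand in order of replicate number.

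Most genes differed between the tissues. Of 21703 genes with enough counts to test, 16247 (74.9%) passed an adjusted p under 0.05 and a change beyond 1.5-fold in edgeR's quasi-likelihood test, 7702 (35.5%) higher in kidney and 8545 (39.4%) higher in marrow. These shares are the background for each count of list members below. In 16719 genes (77%) no kidney library overlapped any marrow library. Differences beyond 10-fold were found for 2290 genes in favour of kidney and 2604 in favour of marrow, and beyond 100-fold for 809 and 766. Among protein-coding genes the balance was the other way, with 6195 higher in kidney and 5112 higher in marrow. All 141 tested immunoglobulin variable segments were higher in marrow, as were 861 of 1205 transcripts of the annotation class still to be tested by experiment, against 129 higher in kidney. The split depended on scaling, since 47.4% of the called genes were higher in kidney with TMM and 38.4% with library totals alone. For 2420 genes (11.2%) the 95% interval of the difference lay inside 1.5-fold either way, and these are called genes of like level.

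The genes with the most reads for their length were ranked among protein-coding genes already called higher in each tissue. Abundant genes that were not called could not enter these lists. In kidney the list was led by Gpx3, the glutathione peroxidase secreted into plasma, at 13833 CPM per kilobase of exon, and by Kap, the androgen-regulated kidney protein, at 12768. Mitochondrial transcripts followed, with mt-Co1, a subunit of cytochrome oxidase, at 9620.2 CPM per kilobase, then Cyp4b1 at 2065, Slc34a1 at 1990.1, the fatty acid transporter Slc27a2 at 1921 and Gpx1 at 1704. In marrow it was led by the globins Hba-a1 at 13785, Hbb-bs at 11647 and Hba-a2 at 8477 CPM per kilobase. The neutrophil proteins S100a9 at 7787 and Ngp at 3946 came next, followed by Actb, Hbb-bt, S100a8 and the histone genes H4c12, H2bc15, H4c6 and H4c8, at 2025 to 3118. The alpha globin copies are nearly identical, as are many histone genes, so the split of reads within those families is uncertain.

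Some genes were read in 1 tissue alone. With at least 1 CPM in all 5 libraries of a tissue and no more than 3 counts in any library of the other, 348 genes (236 protein-coding) were found in kidney alone and 385 (186 protein-coding) in marrow alone. At 10 CPM there were 146 in kidney and 80 in marrow. Acsm2, a medium-chain acyl-CoA synthetase, had 4799, 4709.7, 4877, 4583 and 5016 CPM in the kidney libraries and 0 counts in all 5 marrow libraries, at least 62739-fold higher against a floor of 3 counts per library. Mpo, the myeloperoxidase of neutrophil granules, had 1282, 1340.0, 1429, 1554 and 1414 CPM in marrow and 0 counts in all 5 kidney libraries, at least 10748-fold higher. Prg2, the major basic protein of eosinophil granules, had 818, 890.4, 902, 1006 and 993 CPM in marrow and again no count in kidney, at least 7061-fold higher. In each of these 3 genes the libraries of the higher tissue stood close together. That the tissues did not meet follows from the way the genes were picked. The floor of 3 counts equals 0.122 to 0.141 CPM in kidney and 0.0712 to 0.0815 CPM in marrow, and this limit covers counting error only.

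Promoters of genes with at least 10 CPM in 1 tissue alone differed in composition from promoters of genes of like level. RefSeq promoters of 300 bases (250 before and 50 after the gene start, GRCm38.p6) were matched for all but 30 of 131 protein-coding kidney genes, all but 10 of 73 marrow genes and all but 407 of 2245 like-level genes. The median number of CpG dinucleotides was 4 for the kidney genes, 3 for the marrow genes and 22 for like-level genes, beside 7 over all 32851 promoters. Under 5 CpG were counted in 58.3%, 66.2% and 6.70% of these promoters, beside 38.0% of all. Motifs were searched on both strands as plain strings, and copies may overlap in part. A string of the homeodomain type, GTTAAT followed by any base and then ATT, was in 6 of 120 kidney promoters (5%), 0 of 68 marrow promoters, 0.128% of like-level promoters and 0.399% of all. The string CAAAGTCCA, of the HNF4 type, was in 6 kidney promoters (5%) and 1 marrow promoter (1.47%), beside 0.475% of all. The string GAGGAAGT, of the type bound by ETS factors such as PU.1, was in 10 marrow promoters (14.7%), 6 kidney promoters (5%) and 3.20% of all, and AGATAA, of the GATA type, was in 14.7% of marrow and 13.3% of kidney promoters, beside 11.2%. The string TTGCNNAA, of the C/EBP type, was in 20.6% and 16.7%, beside 10.8%. TATAAA was in 23.5% of marrow and 20% of kidney promoters beside 5.42% of like-level promoters and 13.6% of all, and CCAAT was in 35.8 to 39.7% of all 3 sets. These shares are descriptions of sequence, without a test, and a match is not a bound site.

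The promoters below are examples from genes chosen after their values were seen. The kidney and marrow genes were picked for carrying the string and then for a high level, so its presence in them shows no difference. The motif named above is in capitals and the strand of the gene is read 5′ to 3′. Cltrn, which escorts amino acid transporters to the tubule membrane (chrX:164089937-164090236, plus strand), Sult1d1, a sulfotransferase (chr5:87568957-87569256, minus strand), and Prodh2, which degrades hydroxyproline (chr7:30493408-30493707, plus strand), carry the homeodomain-type string 54, 79 and 128 bases before the gene start. S100a8, a subunit of calprotectin (chr3:90668821-90669120, plus strand), Elane, neutrophil elastase (chr10:79886062-79886361, plus strand), and Mpo (chr11:87793534-87793833, plus strand) carry the ETS-type string 172, 85 and 224 bases before the start. All these starts are those of RefSeq and can differ from the GENCODE annotation used for exon lengths. In GENCODE Cltrn starts at chrX:164088830 and Mpo at chr11:87793581, so the printed Cltrn window lies inside the gene. Rplp0, a protein of the ribosomal stalk (chr5:115559217-115559516, plus strand), is a gene of like level. Its promoter holds 24 CpG and also TATAAA, which only 5.42% of like-level promoters had. Cltrn, Sult1d1 and Prodh2 hold 8, 3 and 5 CpG, beside a median of 4 for the kidney genes. S100a8, Elane and Mpo hold 4, 6 and 2, beside a median of 3 for the marrow genes.
Cltrn: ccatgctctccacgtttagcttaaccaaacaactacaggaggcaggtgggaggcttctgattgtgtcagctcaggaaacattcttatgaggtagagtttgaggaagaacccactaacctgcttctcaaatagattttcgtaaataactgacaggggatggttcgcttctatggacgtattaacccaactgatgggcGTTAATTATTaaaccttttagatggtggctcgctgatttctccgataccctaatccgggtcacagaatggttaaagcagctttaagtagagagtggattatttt
Sult1d1: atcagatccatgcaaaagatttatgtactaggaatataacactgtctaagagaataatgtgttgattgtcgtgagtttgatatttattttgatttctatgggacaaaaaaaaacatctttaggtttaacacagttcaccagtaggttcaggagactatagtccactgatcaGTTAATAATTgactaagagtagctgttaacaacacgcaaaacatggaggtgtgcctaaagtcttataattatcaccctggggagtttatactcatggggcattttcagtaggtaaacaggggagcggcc
Prodh2: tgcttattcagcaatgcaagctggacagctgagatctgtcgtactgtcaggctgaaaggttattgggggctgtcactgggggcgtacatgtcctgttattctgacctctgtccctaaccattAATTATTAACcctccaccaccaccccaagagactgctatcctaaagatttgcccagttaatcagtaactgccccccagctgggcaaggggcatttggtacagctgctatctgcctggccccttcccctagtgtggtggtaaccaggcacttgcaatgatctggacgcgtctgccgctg
S100a8: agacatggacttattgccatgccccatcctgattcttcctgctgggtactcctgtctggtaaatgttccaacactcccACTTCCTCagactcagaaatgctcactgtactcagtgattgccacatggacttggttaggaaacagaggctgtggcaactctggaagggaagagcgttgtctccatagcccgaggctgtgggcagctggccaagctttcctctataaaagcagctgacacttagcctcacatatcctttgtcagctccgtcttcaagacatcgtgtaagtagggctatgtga
Elane: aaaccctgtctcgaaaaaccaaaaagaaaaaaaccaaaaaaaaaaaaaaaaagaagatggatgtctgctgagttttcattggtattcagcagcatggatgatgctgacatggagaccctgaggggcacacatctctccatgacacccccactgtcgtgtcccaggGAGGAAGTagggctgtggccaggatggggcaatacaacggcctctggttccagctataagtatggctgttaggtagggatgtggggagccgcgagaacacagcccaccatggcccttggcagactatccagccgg
Mpo: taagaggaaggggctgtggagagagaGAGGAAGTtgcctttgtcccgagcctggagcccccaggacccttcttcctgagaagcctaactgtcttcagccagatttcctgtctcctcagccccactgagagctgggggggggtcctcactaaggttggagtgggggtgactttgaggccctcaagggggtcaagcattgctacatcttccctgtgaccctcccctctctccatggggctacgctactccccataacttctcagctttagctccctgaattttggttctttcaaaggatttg
Rplp0: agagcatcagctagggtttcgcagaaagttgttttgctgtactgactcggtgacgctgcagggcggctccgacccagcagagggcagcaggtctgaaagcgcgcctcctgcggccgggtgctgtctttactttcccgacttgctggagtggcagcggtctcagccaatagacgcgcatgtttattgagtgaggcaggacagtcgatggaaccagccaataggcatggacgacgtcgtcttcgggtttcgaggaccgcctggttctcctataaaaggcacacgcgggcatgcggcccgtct

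Cltrn had 587, 599, 629, 547 and 574 CPM in kidney and no more than 2 counts in any marrow library, Sult1d1 had 253 ± 15.7 CPM and Prodh2 95.5 ± 7.92 CPM with the same limit in marrow. Elane had 537, 537, 559, 603 and 561 CPM in marrow and no more than 2 counts in any kidney library, and S100a8 had 1888 ± 199 CPM with no more than 2. Rplp0 had 876, 804, 974, 900.2 and 958 CPM in kidney and 952, 1058, 967, 1208 and 830.2 in marrow, so its ranges overlapped.

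Markers of every tubule segment were higher in kidney. The proximal tubule, which reclaims most of the filtrate, had all 14 of its listed markers higher there, beside 35.5% of all tested genes, with a median log2 difference of 11.68 (11.61 with genes at the floor set to it) against -0.11 over all genes. Together they summed to 24568 to 27613 CPM in kidney and 6.52 to 8.26 CPM in marrow. Slc34a1, the sodium-phosphate cotransporter, had 9496, 9054, 9297, 9157 and 9525 CPM in the kidney libraries and 0.158, 0.508, 0.287, 0.380 and 0.244 in the marrow libraries, a log2 difference of 14.81 ± 0.17 (SE, adjusted p = 2.18e-21). Lrp2, the megalin receptor that takes up filtered proteins, had 4575, 4843, 4603, 4954 and 6672 CPM in kidney and 0.145 to 0.237 in marrow. The fifth kidney library was the high one for Lrp2, and the other 4 lay within a narrow range.

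Transporters of the proximal tubule covered several substrate classes. Slc5a2, the main glucose cotransporter, had 527 ± 35.2 CPM in kidney and 2.33 ± 0.608 in marrow (log2 difference 7.82 ± 0.13, SE). Slc22a6 and Slc22a8, exchangers that secrete organic anions and many drugs, had 1563 ± 154 and 609 ± 41.8 CPM in kidney and 0.0475 and 0.262 in marrow. Slc6a19, the neutral amino acid carrier, had 522 ± 141 CPM against 0.294, and Slc3a1 with Slc7a9, the heterodimer that reclaims cystine, had 552 ± 28.7 and 157 ± 9.06 against 0.812 and 0.0326. Slc5a12, a lactate carrier, had 319 ± 53.8 CPM in kidney and 0 counts in marrow, at least 4175-fold higher. The brush border enzyme Ggt1 had 1752 ± 148 CPM and the inositol oxygenase Miox 2261 ± 147, against 1.28 and 0.204 in marrow.

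The thick ascending limb dilutes the urine, and all 7 of its markers were higher in kidney, with a median log2 difference of 10.46 (9.75 at the floor). Umod, the uromodulin of urine, had 2036, 1967, 2486, 2557 and 2631 CPM in kidney and 0, 0, 0.0521, 0 and 0.109 in marrow, so 3 marrow libraries had none. Slc12a1, the furosemide-sensitive cotransporter, had 1115 ± 64.5 CPM against 0.0467 ± 0.0471, and its partner channel Kcnj1 had 163 ± 16.1 against 0.113 ± 0.0284. All 5 markers of the distal convoluted tubule were higher as well, with a median of 6.76. Slc12a3, the thiazide-sensitive cotransporter, had 1509 ± 137 CPM in kidney and 5.27 to 8.97 in marrow (log2 difference 7.71 ± 0.15, SE), and Calb1, a calcium buffer, had 233 ± 48.9 CPM and 0 counts in marrow, at least 3048-fold higher.

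In the collecting duct 6 of 7 principal cell markers were higher in kidney. Aqp2, the water channel governed by vasopressin, had 255, 295, 390.2, 374 and 389 CPM in kidney and 0 to 0.210 in marrow, and kidney 1 and kidney 2 were the low libraries. The sodium channel subunits Scnn1b and Scnn1g had 67.6 ± 2.52 and 55.2 ± 6.66 CPM against 0.378 ± 0.181 and 0.229 ± 0.166. The exception was Avpr2, the vasopressin receptor itself, with 0 to 5 counts in kidney and 75 to 106 counts in marrow (log2 difference -4.54 ± 0.41, SE, adjusted p = 5.04e-09). On GRCm38, 81.3% of the exon bases of Avpr2 (chrX:73892102-73895502, plus strand) are shared with exons of Arhgap4 (chrX:73891442-73921870) on the minus strand. Arhgap4, a GTPase-activating protein, had 120 to 169 counts in kidney and 4830 to 5851 in marrow. Without a stated strand setting, reads of the pair cannot be told apart, and the level of Avpr2 is uncertain in both tissues.

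Intercalated cells secrete acid or base, and 7 of 8 of their markers were higher in kidney. Slc26a4, the pendrin exchanger, had 94.5 ± 4.70 CPM and Atp6v1g3, a proton pump subunit, 18.1 ± 1.40, both with 0 counts in marrow. Foxi1, the transcription factor that specifies the cell, had 38.6 ± 3.98 CPM against 0.0492 ± 0.0480. Atp6v0d2, a proton pump subunit that osteoclasts also use, had 24.03, 26.01, 24.9, 24.6 and 20.8 CPM in kidney and 30.5, 29.3, 25.5, 31.7 and 30.9 in marrow, a log2 difference of -0.30 ± 0.08 (SE, adjusted p = 0.00252) that was not called. With library totals alone it was called higher in marrow (-0.68).

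Podocytes wrap the capillaries of the glomerulus. Of their 10 markers 8 were higher in kidney, beside 35.5% of all tested genes, 1 was higher in marrow and 1 was not called. The median log2 difference was 2.71. Wt1, the transcription factor of mature podocytes, had 11.1, 12.98, 12.8, 12.9 and 13.5 CPM in kidney and 0 to 0.121 in marrow, and the tissues did not overlap. Podxl, the surface sialomucin, had 184 ± 3.38 CPM against 6.94 ± 1.11, and Ptpro, a receptor phosphatase, had 18.5 ± 1.48 in kidney and 18.5 ± 1.08 in marrow (log2 difference 0.01, 95% interval -0.17 to 0.18).

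Transcription factors that pattern the nephron were higher in kidney, 9 of 9, with a median log2 difference of 10.39. Hnf4a, the factor of mature proximal tubule, had 1553, 1507, 1612, 1574 and 1644 CPM in kidney and 0.578, 0.725, 0.391, 1.09 and 0.299 in marrow (log2 difference 11.29 ± 0.18, SE, adjusted p = 5.65e-20). Pax8 had 139.6 ± 10.5 CPM against 0.760 ± 0.149, and Pax2 had 93.7 ± 7.21 with no more than 2 counts in a marrow library. Gata3, which is shared by collecting duct and T cells, was the closest at 26.7 ± 2.42 against 2.38 ± 0.367 CPM.

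Red cell genes were higher in marrow. All 21 erythroid markers tested were higher in marrow, beside 39.4% of all genes, with a median log2 difference of -6.87, and they summed to 29578 to 49729 CPM in marrow and 489 to 691 in kidney. Hba-a1, an alpha globin, had 10857, 11665, 10852, 14514 and 8079.8 CPM in marrow and 122, 100.4, 170.2, 166 and 149 in kidney. Marrow 4 was the highest and marrow 5 the lowest library, a spread that Hbb-bs (8206, 9489, 8704, 12022 and 6304 CPM) and Car1 (189.8, 196, 173, 262 and 137 CPM) repeated. Alas2, which starts heme synthesis in red cells, had 1003, 1144, 1043, 1347 and 732 CPM in marrow and 9.04 ± 1.30 in kidney (log2 difference -6.87 ± 0.17, SE, adjusted p = 2.85e-16).

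Membrane and skeleton proteins of the red cell were higher in marrow as well. Ank1, which anchors the membrane skeleton, had 1034, 986, 1113, 951 and 870.1 CPM in marrow and 1.18, 0.835, 0.849, 0.530 and 1.32 in kidney (log2 difference -10.03 ± 0.15, SE). Slc4a1, the band 3 exchanger that alpha-intercalated cells also make, had 4256 ± 583 CPM in marrow and 51.4 ± 6.86 in kidney (log2 difference -6.37 ± 0.13, SE). The erythroid factors Klf1 and Gata1 had 237 ± 27.6 and 114 ± 14.5 CPM in marrow against 6.76 ± 0.743 and 0.0520 ± 0.0785. Hemoglobin reads in kidney were a small share of those in marrow, and whether they came from blood left in the organ was not tested.

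Granulocyte genes had few counts in kidney. All 14 neutrophil markers were higher in marrow with a median log2 difference of -14.42 (-12.19 at the floor), and 7 of them had no more than 3 counts in any kidney library. Their summed level was 19256 to 23519 CPM in marrow and 2.51 to 3.21 CPM in kidney. Ngp, a protein of secondary granules, had 4304, 4874, 4697, 5331 and 4908 CPM in marrow and 0, 0, 0, 0 and 0.176 in kidney, where 4 of 5 libraries had none. Ltf, the iron-binding lactoferrin, had 3379.9 ± 258 CPM against 0.336 ± 0.232, and S100a9 4065 ± 276 against 0.180 ± 0.139. Lcn2, which the injured tubule also makes, had 1400.2 ± 118 CPM in marrow and 1.46 to 2.03 in kidney (log2 difference -9.73 ± 0.12, SE).

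Markers of every neutrophil stage were present in marrow. The primary granule proteases Elane, Prtn3 and Ctsg of promyelocytes had 559.6 ± 27.1, 356 ± 31.7 and 151 ± 13.02 CPM, the secondary granule protein Camp had 1388 ± 102, and the late proteins Mmp8, Mmp9 and Retnlg had 406 ± 59.4, 960.4 ± 91.4 and 359 ± 33.2. Mast cell, basophil and eosinophil markers were higher in all 7 cases, with Epx, eosinophil peroxidase, at 447 ± 39.6 CPM and the basophil protease Prss34 at 67.6 ± 7.28, and their sum in kidney was 0 to 0.309 CPM. Monocyte markers were higher in all 5 cases, among them Ccr2, the chemokine receptor that lets monocytes leave the marrow, at 96.7 ± 7.51 against 2.64 ± 0.941.

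Macrophage genes were present in both organs and higher in marrow, 8 of 8, with a median log2 difference of -3.29. Adgre1, which encodes F4/80, had 54.2, 59.9, 59.8, 67.7 and 54.98 CPM in marrow and 2.88, 3.72, 5.28, 2.96 and 3.84 in kidney (log2 difference -3.996 ± 0.13, SE). Csf1r, the receptor that macrophages need to survive, was the closest at 175 ± 11.9 against 87.95 ± 9.17. Vcam1 (319 ± 37.3 CPM against 5.44 ± 1.28) and Cd163 (57.4 ± 12.7 against 0.340 ± 0.210), both strong in macrophages of erythroid islands, were wider apart.

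B cell markers were higher in marrow in all 14 cases, with a median log2 difference of -6.63. Cd79a, of the B cell receptor, had 68.8, 77.5, 40.2, 83.01 and 60.9 CPM in marrow and 1.18, 0.793, 0.189, 0.928 and 0.485 in kidney, with marrow 3 the low library. Rag1, the recombinase of developing lymphocytes, had 45.7, 48.5, 24.4, 58.1 and 32.02 CPM in marrow and 0 counts in kidney, at least 319.8-fold higher. Ighm, the heavy chain of immunoglobulin M, had 473 ± 99.8 CPM against 4.70 ± 0.308. T and NK cell markers were low in both tissues and higher in marrow, 9 of 9 and 6 of 6. Cd3e had 4.22 ± 0.614 CPM in marrow and 1.48 ± 0.486 in kidney (log2 difference -1.51 ± 0.23, SE, adjusted p = 6.89e-06), and the list medians were -2.88 and -3.73. Cd4, which monocytes and dendritic cells are known to make too, had 65.4 ± 12.3 CPM in marrow and 0.533 ± 0.168 in kidney.

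Platelet precursors followed the same direction. All 7 tested megakaryocyte markers were higher in marrow, with Ppbp and Pf4, chemokines of platelet granules, at 396 ± 66.4 and 138 ± 24.9 CPM against 0.263 ± 0.167 and 0.260 ± 0.117. Stem and progenitor markers were mixed, with 6 higher in marrow, 2 higher in kidney and 1 not called. Over all tested genes 39.4% were higher in marrow and 35.5% in kidney. Kit had 78.9 ± 7.44 CPM in marrow and 20.6 ± 1.76 in kidney, and Myb, needed for definitive blood formation, had 187 ± 12.6 against 0.133 ± 0.119. Hlf, a factor of stem cells and of the hepatic and renal clock output, was higher in kidney at 223, 217, 204, 202 and 198 CPM against 8.70, 8.34, 9.39, 7.03 and 6.76 (log2 difference 4.70 ± 0.09, SE), and Procr, the protein C receptor, had 1.15 ± 0.277 against 0.508 ± 0.297. Procr rested on 18 to 34 counts in kidney libraries and 9 to 42 in marrow libraries, and the ranges overlapped. Its call was lost with library totals alone (adjusted p = 0.0516 in the same test) or the Y-chromosome covariate (0.157). Cd34, also a marker of endothelium, had 16.5 ± 0.788 in kidney and 18.2 ± 2.49 in marrow (log2 difference -0.15, 95% interval -0.35 to 0.05).

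Blood transcription factors were higher in marrow in 14 of 16 cases, with a median log2 difference of -6.45. Spi1, which encodes PU.1, had 174, 187, 190.2, 204 and 216 CPM in marrow and 3.85, 2.76, 3.63, 2.78 and 2.87 in kidney (log2 difference -5.93 ± 0.10, SE). Ikzf1, the lymphoid regulator, had 358 ± 22.97 against 5.16 ± 1.47, Runx1 175 ± 20.5 against 3.49 ± 0.678 and Tal1 276 ± 28.6 against 2.52 ± 0.295. Neither Cebpa nor Gata2 was called, although Cebpa was called higher in marrow with library totals alone (-0.71) or the Y-chromosome covariate (-0.73). Cebpa, a granulocyte factor that is also metabolic, had 70.8, 56.8, 55.1, 70.4 and 73.2 CPM in kidney and 73.1, 79.7, 78.8, 88.8 and 88.4 in marrow (log2 difference -0.32, 95% interval -0.51 to -0.14). Gata2, a stem cell factor, had 39.3, 36.4, 35.6, 45.98 and 41.6 in kidney and 31.7, 27.1, 30.4, 34.4 and 31.8 in marrow (log2 difference 0.36, 95% interval 0.18 to 0.53).

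**Figure D1:**
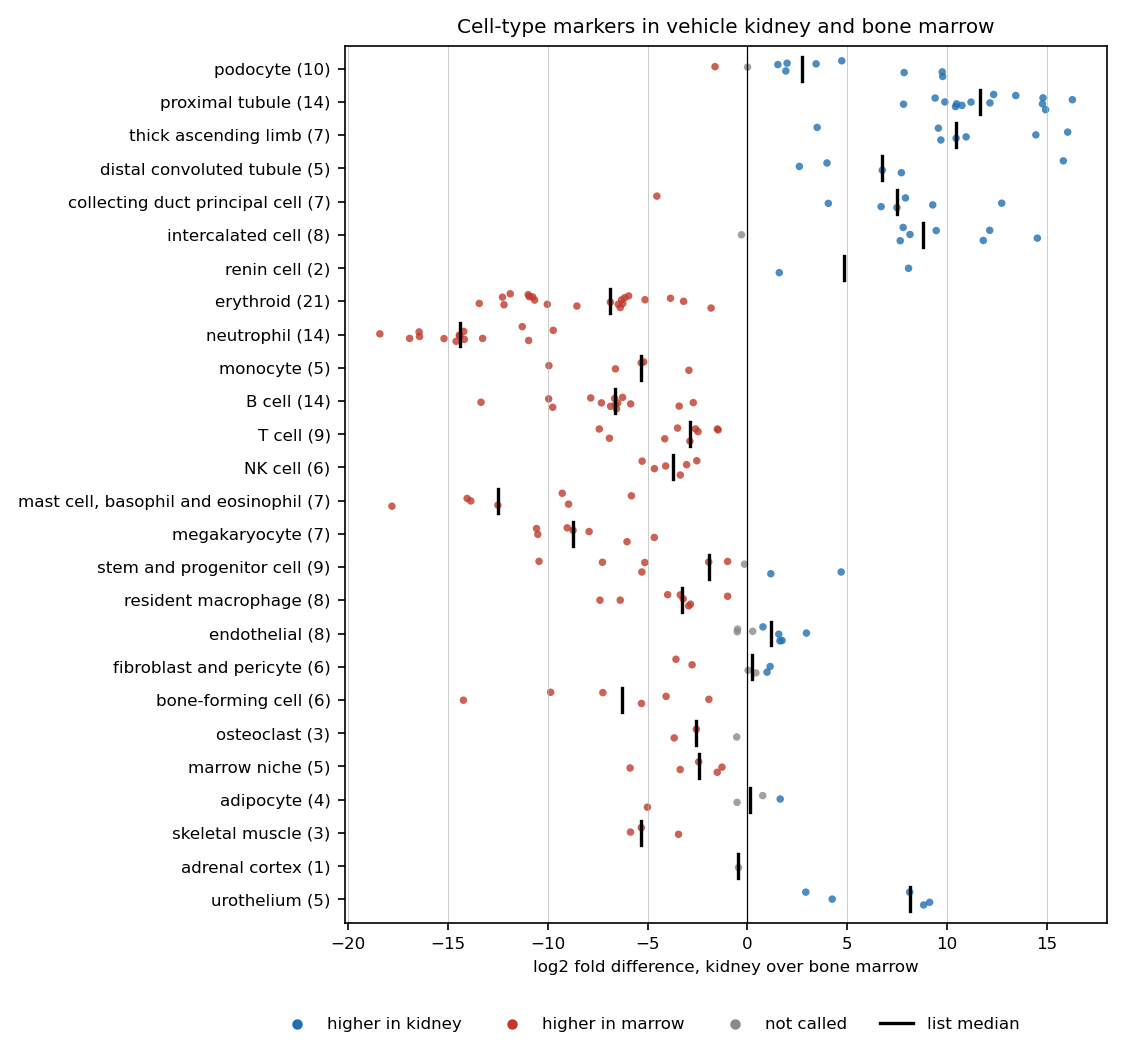
Log2 difference of kidney over bone marrow for each tested cell type marker, with 1 point per gene, the black bar at the list median and the number of tested genes in brackets. Tubule lists lay to the right and blood cell lists to the left, with Avpr2 among the kidney markers higher in marrow and Hlf and Procr as stem cell markers higher in kidney, while points beyond about 12 in either direction belong to genes with few or no counts in 1 tissue.

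Endothelial genes, of cells that both organs contain, had a smaller median difference than the lists of tubule or blood cell markers. Of 8 endothelial genes 5 were higher in kidney and 3 were not called, beside 35.5% higher in kidney and 74.9% called over all genes. The median log2 difference was 1.17. Emcn, endomucin, had 36.4, 38.9, 42.3, 41.3 and 37.4 CPM in kidney and 4.84, 4.38, 4.61, 5.75 and 5.70 in marrow (log2 difference 2.96 ± 0.10, SE), and Plvap, of the diaphragms of fenestrated capillaries, had 163 ± 8.37 against 48.9 ± 7.71. Pecam1 had 45.1 to 52.6 CPM in kidney and 60.4 to 74.3 in marrow (log2 difference -0.50, 95% interval -0.65 to -0.34), and Cdh5, the endothelial cadherin, had 29.4 ± 1.38 and 41.9 ± 4.57. With library totals alone or upper quartile scaling, Pecam1 and Cdh5 were called higher in marrow and Kdr lost its call for kidney.

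Among fibroblast and pericyte genes Col3a1 (30.9 ± 2.15 against 14.04 ± 4.17 CPM) and Pdgfra were higher in kidney, and Col1a1 (288 ± 116 in marrow against 24.04 ± 3.01) and Lum were higher in marrow. Pdgfrb, the receptor of pericytes, had 50.8 ± 2.65 CPM in kidney and 49.6 ± 5.96 in marrow (log2 difference 0.03, 95% interval -0.13 to 0.20). All 5 genes of the marrow niche were higher in marrow. Cxcl12, the chemokine that retains stem cells, had 1059, 1011, 939, 1188 and 923 CPM in marrow and 195, 178, 194, 176 and 199 in kidney (log2 difference -2.44 ± 0.08, SE, adjusted p = 1.14e-15), and Lepr, the leptin receptor of niche stroma, had 67.3 ± 9.24 against 6.53 ± 1.66. Bone-forming markers were higher in marrow in all 6 cases. Ibsp, bone sialoprotein, had 74.1, 49.7, 92.9, 100.1 and 68.8 CPM in marrow and 0 counts in kidney, at least 590.3-fold higher, and Bglap, osteocalcin, had 5.86, 1.76, 1.59, 3.63 and 5.79 CPM and 0 counts.

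Markers of muscle, fat and urothelium were read in some libraries, and whether they came from neighbouring tissue was not tested. Acta1, the skeletal muscle actin, had 2.63, 0.532, 25.1, 1.38 and 16.2 CPM in the marrow libraries and 0.141 to 0.324 in kidney (log2 difference -5.32 ± 1.36, SE), and Myh4, the fast myosin, had 8.59, 0.193, 24.7, 0.665 and 40.04 and 0 to 0.167. Marrow 3 and marrow 5 were the high libraries for both genes, and without marrow 3 the log2 difference of Acta1 was -4.50. The 7 muscle genes summed to 8.10 to 85.6 CPM in marrow and 0.519 to 1.84 in kidney. Fat markers were mixed, with 1 of 4 tested genes higher in marrow, 1 higher in kidney and 2 not called (median log2 difference 0.12). The 1 higher in marrow was Adipoq, the fat hormone adiponectin. It had 24.1, 23.1, 13.9, 28.7 and 12.1 CPM in marrow and 1.70, 0.668, 0.0943, 0.398 and 0.176 in kidney. All 5 urothelial markers were higher in kidney at low levels, with Upk1a, of the bladder and pelvis lining, at 5.60 ± 1.33 CPM. The 4 adrenal genes summed to 3.04 to 5.23 CPM in kidney and 4.77 to 6.71 in marrow, and the 1 gene tested was not called. The adrenal enzymes Cyp11b1, Cyp11b2 and Cyp21a1 had no more than 3 counts in any kidney library, and Cyp11b1 and Cyp11b2 had none.

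**Figure D2:**
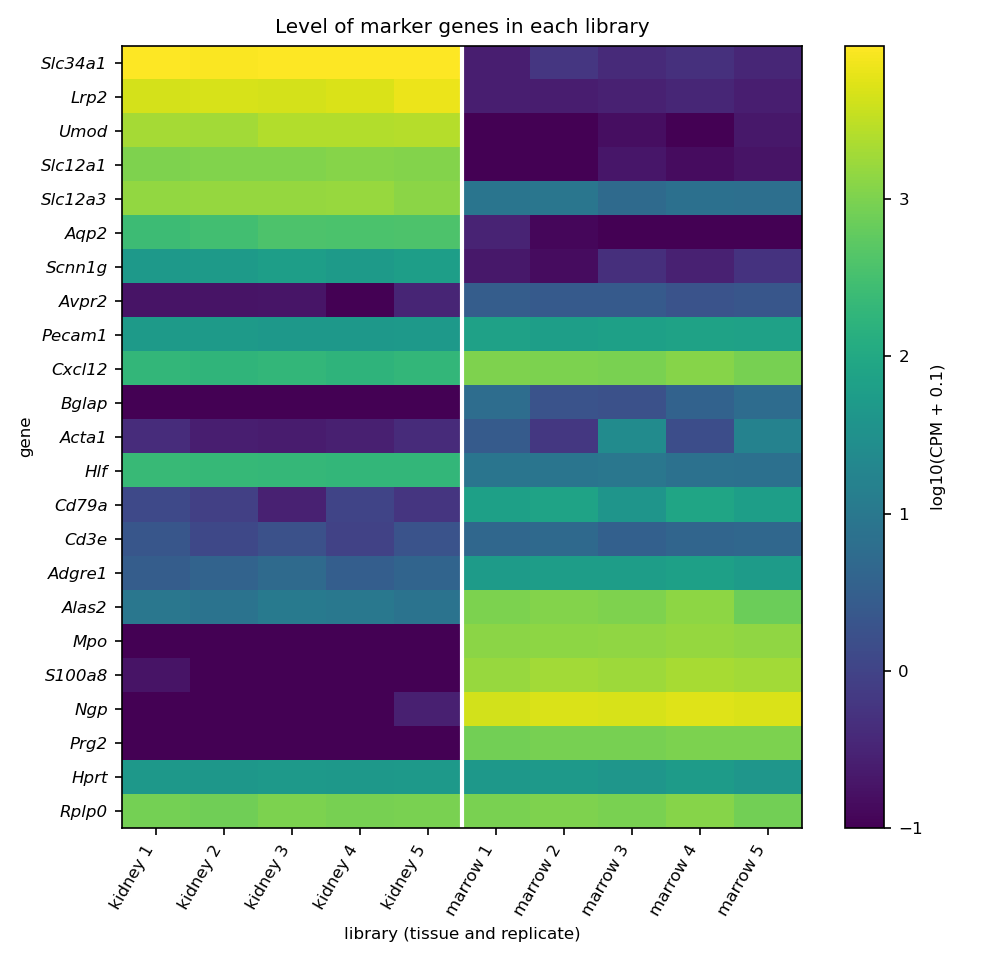
Levels of marker and reference genes in each of the 10 libraries as log10 of CPM plus 0.1, with kidney libraries left of the white line. Most genes had an even shade within a tissue, Acta1 was high in marrow 3 and marrow 5, and Hprt and Rplp0 had a like shade on both sides of the line.

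Cell division was on the marrow side. All 21 replication and mitosis genes were higher in marrow with a median log2 difference of -7.02, and the summed level was 6247 to 8081 CPM against 131 to 154. Mki67, the proliferation antigen Ki-67, had 2707, 2685, 2727, 2726 and 2273 CPM in marrow and 4.01, 3.92, 3.11, 2.43 and 4.10 in kidney (log2 difference -9.54 ± 0.14, SE, adjusted p = 1.01e-20). Top2a, which untangles replicated chromosomes, had 700.1 ± 58.6 against 1.89 ± 0.408, and E2f8 had 207 ± 19.7 against 0.150 ± 0.111. Pcna, the replication clamp, had 203 ± 23.9 CPM against 25.2 ± 2.15 (log2 difference -3.02 ± 0.09, SE), and the helicase subunit Mcm6 had 289 ± 33.8 against 23.7 ± 3.10. E2f2 had 563, 582, 559, 628 and 441 CPM in marrow and 4.88 to 5.65 in kidney.

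Glycolytic genes did not move as a block. Of 22 genes 14 were higher in kidney, 4 in marrow and 4 were not called, beside 35.5% higher in kidney over all genes. The median log2 difference was 1.21, and the direction went by isozyme. At the first step all 3 measured hexokinases were higher in marrow. Hk3, the hexokinase of phagocytes, had 260.3, 267, 276, 246 and 313 CPM in marrow and 0.608, 0.877, 0.236, 0.707 and 0.706 in kidney (log2 difference -8.74 ± 0.15, SE), Hk2 had 89.2 ± 7.38 against 3.99 ± 0.826, and Hk1 had 332 ± 26.6 against 205 ± 7.24. Gpi1, the next enzyme, had 641, 599, 621, 609.6 and 631 CPM in kidney and 531, 593, 589.8, 637 and 651 in marrow and was of like level (log2 difference 0.05, 95% interval -0.10 to 0.19). Among phosphofructokinases Pfkl (121 ± 5.71 against 50.3 ± 4.07 CPM) and Pfkm (82.4 ± 5.57 against 45.9 ± 6.31) were higher in kidney and Pfkp (44.9 ± 5.30 against 50.6 ± 2.60) was not called.

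The aldolases Aldoa and Aldoc were higher in kidney, with 976 ± 31.99 CPM against 299.6 ± 27.8 and 18.9 ± 2.30 against 2.35 ± 0.317. The shared later steps Tpi1, Gapdh and Pgk1 had 812 ± 52.2, 1777 ± 111 and 389.8 ± 21.7 CPM in kidney and 103 ± 11.8, 544 ± 55.4 and 118 ± 8.20 in marrow. Pgam1 had 151 ± 13.6 CPM in kidney against 64.1 ± 6.66, and Pgam2, the muscle mutase, had 63.7 ± 4.13 against 5.71 ± 1.53. Among enolases Eno1 had 629.9 ± 20.7 against 321 ± 26.8, the neuronal Eno2 had 2.03 ± 0.385 against 0.893 ± 0.424, and the muscle form Eno3 was not called at 6.01 ± 0.332 and 6.77 ± 1.89. Pkm, the pyruvate kinase of dividing cells and muscle, was higher in marrow at 552, 584, 603, 674 and 616 CPM against 255, 279, 292, 274 and 283. Pklr, the form of liver, kidney and red cells, was not called at 38.6 ± 0.945 in kidney and 52.5 ± 9.15 in marrow. It was called higher in marrow with library totals alone (-0.82), upper quartile scaling (-0.68), 10 counts required in every library (-0.61) or the Y-chromosome covariate (-0.67). Lactate dehydrogenase split by subunit, with Ldhb, which favours lactate use, at 1383 ± 60.6 CPM in kidney and 10.1 ± 0.497 in marrow (log2 difference 7.09 ± 0.09, SE) and Ldha at 742 ± 55.9 and 259 ± 35.1 (log2 difference 1.52 ± 0.09, SE).

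Glucose synthesis belonged to kidney, the organ that shares it with liver, in 6 of 7 genes, beside 35.5% of all tested genes. Pck1, the cytosolic carboxykinase, had 2769, 3512, 2977, 3263 and 3576 CPM in kidney and 0.263, 0.169, 0.156, 0.237 and 0.353 in marrow (log2 difference 13.72 ± 0.17, SE). Its mitochondrial counterpart Pck2 was higher in marrow at 94.7 ± 9.73 CPM against 23.1 ± 1.63 (log2 difference -2.03 ± 0.08, SE). G6pc, which releases free glucose, had 572 ± 61.4 CPM in kidney and 0, 0.0967, 0.0261, 0 and 0 in marrow, and Fbp1 had 1347 ± 53.2 against 2.73 ± 0.935.

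All 13 protein-coding genes of the mitochondrial genome were higher, with a median log2 difference of 3.04, from mt-Nd6 (1.02), the gene of the light strand, to mt-Co3 (3.97). All 17 nuclear genes of the respiratory chain were higher in a narrow band of 1.85 to 3.14. Atp5b, the catalytic subunit of ATP synthase, had 3601, 3366, 3579.7, 3476 and 3579 CPM in kidney and 516, 526, 552, 644 and 449 in marrow (log2 difference 2.71 ± 0.09, SE). Cyc1, cytochrome c1, had 638 ± 69.6 against 72.2 ± 6.77. All 12 genes of fatty acid oxidation were higher with a median of 3.32. Ppara, the receptor that drives the pathway, had 132 ± 26.1 CPM against 0.190 ± 0.0933 (log2 difference 9.39 ± 0.21, SE), and its coactivator Ppargc1a 95.3 ± 5.50 against 0.470 ± 0.197. Hadha, of the trifunctional protein, was the closest at 229 ± 5.25 against 132 ± 13.4, and with library totals alone it was not called.

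**Figure D3:**
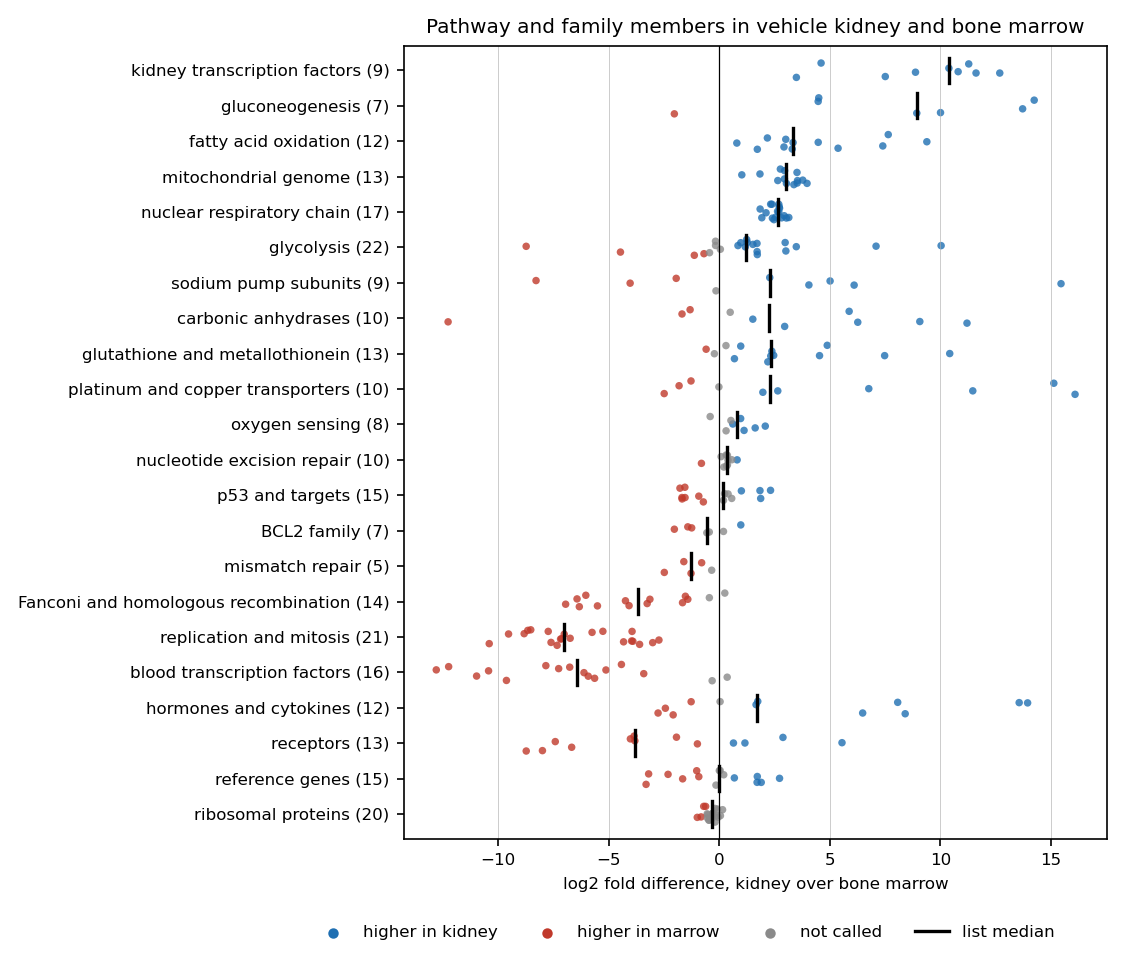
Log2 difference of kidney over bone marrow for members of each pathway or family list, with 1 point per tested gene and the black bar at the list median. Respiration and fat oxidation lay wholly to the right, replication wholly to the left, nucleotide excision repair and ribosomal proteins close to 0, and glycolysis, pump subunits, anhydrases, hormones and receptors on both sides.

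Beta subunits of the sodium pump and its FXYD regulators, other than Atp1b3, differed between the organs. Per kilobase of exon, Atp1b1, a beta subunit, had 896 CPM in kidney and Fxyd2, the renal modulator, 618. In marrow the same scale gave 33.1 for Atp1b3 and 25.98 for Fxyd5. Atp1b1 had 2749.7, 2689.5, 2862, 2679.7 and 2827 CPM in kidney and 44.5, 42.8, 31.8, 50.3 and 31.7 in marrow (log2 difference 6.10 ± 0.14, SE, adjusted p = 2.36e-18). Fxyd5, or dysadherin, was higher in marrow at 95.95, 98.2, 112, 106 and 132 CPM against 6.89, 6.35, 6.74, 6.45 and 6.75 (log2 difference -4.04 ± 0.10, SE, adjusted p = 4.89e-18). The tissues did not overlap for either gene, and the directions were opposite.

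Fxyd2 was higher in kidney at 2474 ± 262 CPM against 0.0495 ± 0.0499, as was the collecting duct form Fxyd4 at 25.99 ± 3.28 against 1.57 ± 0.417. Atp1b2 was higher in marrow at 39.97 ± 4.15 CPM against 10.3 ± 0.703. Atp1b3 was not called, with 67.4 to 75.3 CPM in kidney and 67.6 to 93.7 in marrow (log2 difference -0.15, 95% interval -0.32 to 0.01).

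Carbonic anhydrases were likewise divided, with 6 of 10 higher in kidney and 3 higher in marrow, beside 35.5% and 39.4% of all tested genes. Car4 and Car14, which face the tubule lumen, and Car12, of the basolateral side, had 189.8 ± 23.5, 88.9 ± 10.3 and 290.3 ± 13.6 CPM in kidney against 0.0771 ± 0.0604, 1.16 ± 0.394 and 0.544 ± 0.232. The mitochondrial Car5b had 47.4 ± 3.39 against 0.807 ± 0.269, Car3 had 22.5 ± 4.72 against 7.87 ± 2.67 and Car8, a family member without enzyme activity, 8.96 ± 0.811 against 1.15 ± 0.450. Car2, the cytosolic form of red cells, osteoclasts and tubule, was high in both and higher in marrow at 1157, 1224, 1328, 1406 and 966 CPM against 397, 370.1, 387, 358 and 375 (log2 difference -1.69 ± 0.09, SE). Car1, of red cells, had 192 ± 45.7 CPM in marrow and no count in 4 of 5 kidney libraries, and Car13 had 3.90 ± 0.477 against 1.56 ± 0.212. Car15 was not called at 0.936 ± 0.551 and 0.660 ± 0.222 CPM, and 65.7% of its exon bases are shared with another gene.

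**Figure D4:**
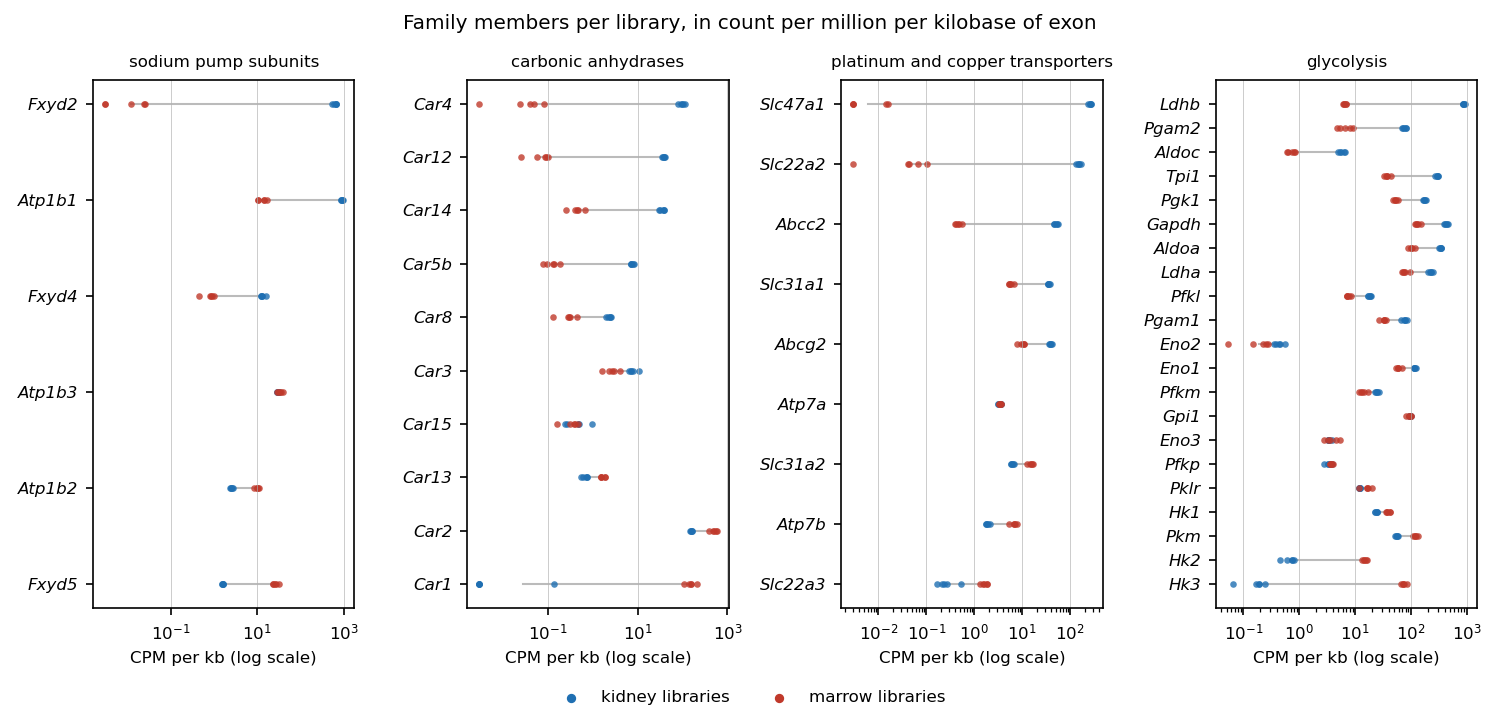
Levels of the reported pump subunits, carbonic anhydrases, transporters and glycolytic enzymes in CPM per kilobase of exon on a log axis, with 1 point per library and kidney in blue, marrow in red. Values under 0.003 are drawn at 0.003, grey lines join the means of the tissues, and genes run from kidney-high at the top to marrow-high at the bottom.

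Hormone genes and their receptors were found in the same organ for some pairs and in different organs for others. Of 15 secreted factors and hormone enzymes, 7 were higher in kidney, 4 in marrow, 1 was not called and 3 were too low to test. Over all tested genes 35.5% were higher in kidney and 39.4% in marrow. Epo, the kidney hormone that drives red cell formation, had 0 to 6 counts in kidney libraries and 0 to 1 in marrow libraries. Its receptor Epor had 93.2, 94.6, 93.5, 102 and 74.7 CPM in marrow and 6.85, 5.59, 6.32, 5.92 and 6.92 in kidney (log2 difference -3.86 ± 0.10, SE, adjusted p = 1.19e-17). Thpo, the hormone of platelet formation, had 11.1, 11.2, 13.1, 10.4 and 12.9 CPM in kidney and 0, 0, 0.104, 0.0475 and 0 in marrow (log2 difference 8.41 ± 0.35, SE, and 9.45 without marrow 3).

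Renal endocrine genes were higher in kidney. Kl, or klotho, the coreceptor for the bone hormone FGF23, had 1041, 999, 1056, 982 and 1067 CPM in kidney and 0, 0.0725, 0.130, 0.0712 and 0.0272 in marrow (log2 difference 13.95 ± 0.17, SE), and Fgfr1, the receptor that pairs with it, had 104 ± 4.01 against 14.1 ± 1.22. Fgf23 was too low to test, with 0 to 1 counts in kidney libraries and 6 to 50 in marrow libraries. Ren1, renin, had 36.4, 48.5, 71.98, 53.6 and 61.9 CPM in kidney and 0.0475 to 0.314 in marrow, Agt, its substrate, 51.3 ± 5.99 against 16.2 ± 2.12, and Agtr1a, the angiotensin receptor, 37.8 ± 3.26 against 24.3 ± 2.46. Without kidney 1, the high library for Agtr1a, the log2 difference was 0.57 and the call was lost. Cyp27b1, which activates vitamin D, had 20.2, 9.39, 15.8, 18.1 and 27.2 CPM in kidney and 0.131 to 0.242 in marrow, and Cyp24a1, which degrades it, had 193, 126, 107, 73.98 and 51.998 and no more than 1 count in marrow. These were among the more variable kidney genes, with Cyp24a1 lowest in kidney 5, where Cyp27b1 was highest. Vdr, the vitamin D receptor, had 375 ± 19.4 CPM against 7.997 ± 1.86.

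Local growth factors of blood cells were divided between the organs. Csf1, the macrophage factor, had 41.4 ± 3.73 CPM in marrow against 9.72 ± 1.04, while Il34, the other ligand of Csf1r, was higher in kidney at 25.7 ± 4.72 against 7.69 ± 0.892 (log2 difference 1.74 ± 0.12, SE). Kitl, the ligand of Kit, had 42.1 ± 5.74 against 17.4 ± 1.82, and Igf1 had 41.5 ± 3.83 against 6.07 ± 1.04 while its receptor Igf1r was higher in kidney at 539 ± 32.6 against 242 ± 23.4. Il7, the lymphoid cytokine, had 1.94 ± 0.630 CPM in kidney and 1.89 ± 0.766 in marrow (log2 difference 0.04, 95% interval -0.59 to 0.66), but its receptor Il7r had 27.5 ± 5.77 in marrow against 0.154 ± 0.0975. Csf3r, the receptor for G-CSF, had 372, 373, 447, 333 and 520.4 CPM in marrow and 1.38, 1.71, 1.41, 2.08 and 1.37 in kidney (log2 difference -8.004 ± 0.16, SE), Csf2ra 184 ± 30.7 against 13.1 ± 1.67, Il6ra 92.5 ± 12.3 against 5.67 ± 1.25, and Cxcr4, the receptor for Cxcl12, 225 ± 20.5 against 2.18 ± 0.423. Csf3 itself had 0 to 2 counts in kidney libraries and 1 to 8 in marrow libraries.

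Transporters known to carry platinum drugs or copper included genes higher in kidney and genes higher in marrow. Of 10 genes 6 were higher in kidney, 3 in marrow and 1 was not called, beside 35.5% higher in kidney and 39.4% higher in marrow over all genes. Slc22a2, the organic cation transporter OCT2 of the basolateral tubule, had 379, 325, 359, 383 and 411 CPM in kidney and 0.105, 0, 0.261, 0.166 and 0.109 in marrow (log2 difference 11.47 ± 0.19, SE, adjusted p = 9.85e-20). Slc47a1, the MATE1 exporter of the lumen, had 876 ± 45.6 CPM in kidney, with no more than 2 counts in a marrow library. Slc22a3, or OCT3, was the one cation transporter higher in marrow, at 8.20, 7.32, 6.70, 8.33 and 5.87 CPM against 2.39, 1.04, 0.754, 1.24 and 0.970 (log2 difference -2.49 ± 0.25, SE).

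Copper handling was split between the organs. Slc31a1, the importer CTR1, had 152 ± 7.20 CPM in kidney against 24.3 ± 2.34, and Slc31a2 had 30.5 ± 3.16 in marrow against 12.5 ± 0.875. Atp7b, the copper exporter, was higher in marrow at 43.2 ± 5.70 CPM against 12.2 ± 1.15 (log2 difference -1.82 ± 0.10, SE), and Atp7a had 26.8 to 31.8 CPM in kidney and 27.99 to 32.1 in marrow (log2 difference -0.02, 95% interval -0.18 to 0.14). The efflux pumps Abcc2 and Abcg2 had 426 ± 37.6 and 315 ± 16.96 CPM in kidney against 3.93 ± 0.484 and 80.4 ± 10.5.

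The list of glutathione, metallothionein and related genes had 10 of 13 tested members higher in kidney, beside 35.5% of all tested genes. Its median log2 difference was 2.33. Gss, glutathione synthetase, had 343, 286, 337, 316 and 355 CPM in kidney and 12.3, 11.7, 10.5, 10.02 and 11.0 in marrow (log2 difference 4.88 ± 0.09, SE). The rate-limiting ligase subunits were closer, Gclc at 333 ± 46.6 against 170.0 ± 20.3 and Gclm at 366 ± 24.2 against 228 ± 28.2 CPM, and with library totals alone neither was called. Gstm1 and Gsta3, transferases, had 498 ± 34.9 and 71.6 ± 4.76 against 95.8 ± 8.94 and 0.399 ± 0.120. Gsr, which recycles oxidized glutathione, was higher in marrow at 423 ± 20.98 against 279.8 ± 15.7, at the edge of the 1.5-fold threshold (log2 difference -0.60 ± 0.07, SE), and its call was lost without kidney 2 (-0.58), kidney 4 (-0.58) or marrow 4 (-0.57). Mt1, a metallothionein, had 94.2 ± 12.7 CPM against 17.1 ± 1.59. Mt2 was too low to test at 0 to 26 counts in kidney, and 73.5% of its exon bases are shared with a gene on the opposite strand.

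DNA repair genes differed by pathway. In nucleotide excision repair, which removes platinum adducts, 8 of 10 genes were not called, beside 74.9% called over all genes, and the median log2 difference was 0.35. Xpa, of the damage complex, had 15.4, 14.2, 14.8, 10.8 and 15.4 CPM in kidney and 14.7, 12.8, 13.1, 12.1 and 14.1 in marrow (log2 difference 0.08, 95% interval -0.14 to 0.31), and Ercc1, of the nuclease, had 9.93 ± 0.677 and 8.60 ± 0.636. The damage sensor Xpc was higher in kidney at 83.4 ± 4.89 CPM against 47.7 ± 3.20, and lost its call with library totals alone, and Ddb2 was higher in marrow at 7.79 ± 0.709 against 4.44 ± 0.671.

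Crosslink repair lay on the marrow side. Of 14 Fanconi and homologous recombination genes 12 were higher in marrow, with a median log2 difference of -3.67. Brca1 had 109, 111, 111, 108 and 91.8 CPM in marrow and 0.365, 1.17, 1.13, 0.839 and 0.794 in kidney (log2 difference -6.95 ± 0.15, SE, adjusted p = 1.24e-18). Fancd2, which is ubiquitinated at crosslinks, had 52.3 ± 4.71 against 0.604 ± 0.289. Fancc (19.5 ± 1.78 and 14.3 ± 0.806 CPM in marrow and kidney) and the nuclease scaffold Slx4 (57.3 ± 3.16 and 68.1 ± 2.84) were not called. Fancc was called higher in marrow with library totals alone (-0.84), upper quartile scaling (-0.69) or 10 counts required in every library (-0.62). Many of these genes are known to be made in S phase, and the replication genes moved in the same direction, and their part in this result was not tested. Mismatch repair was higher in marrow in 4 of 5 genes, beside 39.4% of all tested genes. Pms2 had 28.1 ± 3.97 CPM in marrow against 4.99 ± 0.951.

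The p53 list was mixed. Trp53 itself had 78.6, 85.5, 83.8, 95.2 and 74.1 CPM in marrow and 34.04, 27.4, 28.5, 25.4 and 26.9 in kidney (log2 difference -1.55 ± 0.09, SE), and its inhibitors Mdm2 and Mdm4 had 68.6 ± 1.42 and 153 ± 13.5 against 36.05 ± 2.61 and 47.4 ± 7.60. Among its targets Ccng1 (181 ± 14.2 against 49.4 ± 3.96 CPM), Zmat3 (51.2 ± 3.07 against 10.3 ± 0.991) and Sesn2 (103 ± 27.2 against 28.8 ± 1.19) were higher in kidney. Sesn1 (54.03 ± 5.29 in marrow against 18.3 ± 0.740), Trp53inp1 (103 ± 11.6 against 29.9 ± 5.78) and the death gene Bbc3 (13.3 ± 1.06 against 4.14 ± 0.957) were higher in marrow. Cdkn1a, the p21 inhibitor of the cell cycle, was low in both at 2.59, 1.88, 3.68, 3.22 and 5.20 CPM in kidney and 5.05, 5.54, 5.37, 5.34 and 6.003 in marrow, and kidney 5 overlapped the marrow range. It was called higher in marrow (log2 difference -0.72 ± 0.21, SE, adjusted p = 0.00417), and without kidney 2 the difference was -0.58 and the call was lost. Bax had 18.8 ± 0.572 CPM in kidney and 16.5 ± 1.57 in marrow and was not called. In the BCL2 family Mcl1 had 313 ± 29.8 CPM in marrow against 131 ± 9.0003 and Bak1 44.6 ± 3.85 against 10.9 ± 1.28, while Bid was higher in kidney at 74.99 ± 8.65 against 38.2 ± 1.49.

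Oxygen sensing genes that govern Epo were higher in kidney in 5 of 8 cases, beside 35.5% of all tested genes. Egln1, the main prolyl hydroxylase, had 138, 117, 127, 134 and 136 CPM in kidney and 27.4, 32.6, 27.8, 36.2 and 30.4 in marrow (log2 difference 2.08 ± 0.08, SE), and Egln2 had 153 ± 7.40 against 49.6 ± 1.15. Epas1, the HIF2 alpha subunit, had 205 ± 9.09 against 94.2 ± 13.1. Hif1a at 67.6 ± 3.67 against 44.2 ± 3.13 CPM was at the edge of the threshold (log2 difference 0.61 ± 0.07, SE) and lost its call without kidney 4 (0.57) or marrow 3 (0.58). With library totals alone both Hif1a (0.23) and Egln3 (0.58) lost their calls, and the list had no majority for kidney there, with upper quartile scaling, with either other low-count filter, at 2-fold, in the test against 1.5-fold or with the Y-chromosome covariate. Vhl had 21.8 ± 2.91 and 17.6 ± 2.73 CPM and Arnt 55.9 ± 2.40 and 74.4 ± 3.30, and neither was called. Arnt was called higher in marrow with library totals alone (-0.80), upper quartile scaling (-0.66) or 10 counts required in every library (-0.59).

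Genes often used as references for expression were called about as often as other genes. Of 15 genes 5 were higher in kidney, 6 in marrow and 4 were not called, beside 35.5% higher in kidney and 39.4% higher in marrow over all genes. Actb, beta actin, had 7619.8, 7936, 8204, 9768 and 8240.1 CPM in marrow and 1572, 1509, 1817, 1639 and 1825 in kidney (log2 difference -2.32 ± 0.09, SE), whereas Gapdh went the other way with 1765, 1629.5, 1902, 1720.4 and 1869.7 in kidney and 505, 542, 546, 634 and 492 in marrow (log2 difference 1.71 ± 0.08, SE). Tfrc, the transferrin receptor that red cell precursors use, had 549 ± 72.9 CPM in marrow against 59.8 ± 6.94. Sdha, of the respiratory chain, had 899.9 ± 28.7 in kidney against 136 ± 10.6.

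Hprt, Gusb, Ppia and Rplp0 were of like level. Hprt had 45.9, 43.4, 49.5, 45.2 and 49.97 CPM in kidney and 44.2, 47.8, 41.2, 53.99 and 40.9 in marrow (log2 difference 0.04, 95% interval -0.13 to 0.21), and Gusb had 81.4 ± 13.4 and 81.4 ± 4.72. Ppia had 335 ± 13.8 and 292 ± 28.9. None of these 4 was called under library totals alone, upper quartile scaling or median ratio size factors, although the sign of Hprt, Gusb and Ppia turned with library totals. Ribosomal proteins were not called in 16 of 20 cases, beside 74.9% called over all genes, with a median log2 difference of -0.33. The other 4 (Rpl4, Rpl7, Rps4x and Rps6) were higher in marrow, with Rpl7 at -0.62 and Rps4x at -0.82. With library totals alone the majority of ribosomal genes was called higher in marrow. The abundant like-level genes were Rplp0, the kinase Wnk1 (704 ± 33.01 and 844 ± 36.9 CPM in kidney and marrow), Gpi1, Rps2 (622 ± 52.6 and 562 ± 69.5), the ubiquitin gene Ubb (609.7 ± 64.02 and 517 ± 64.8) and the ubiquitin ligase Ubr4 (529 ± 26.4 and 598 ± 28.1). The kidney and marrow libraries of Wnk1 did not overlap (656 to 741 against 779 to 870 CPM). With library totals alone Wnk1 was called higher in marrow (-0.65).

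**Figure D5:**
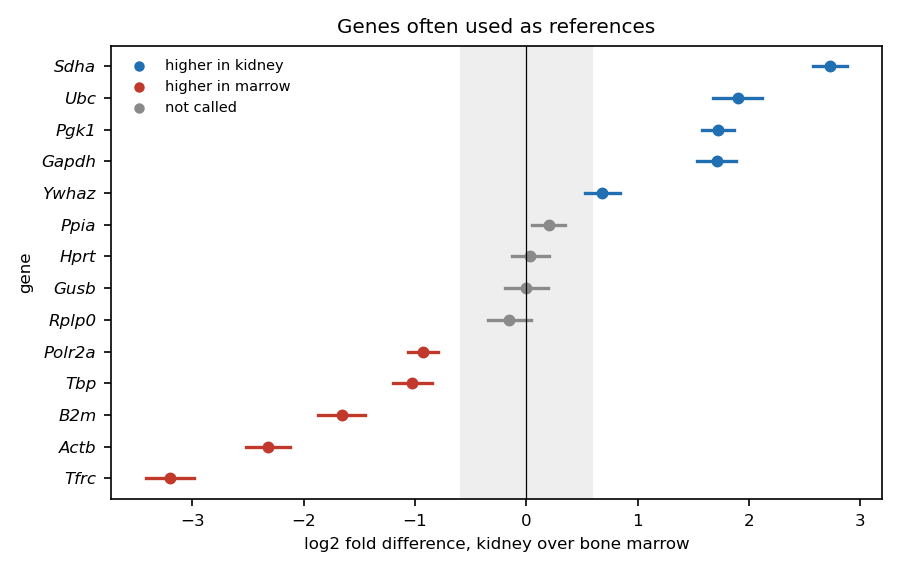
Log2 difference of kidney over bone marrow with its 95% interval for genes often used as references, coloured by call, with the grey band marking 1.5-fold either way. Ppia, Hprt, Gusb and Rplp0 lay inside the band, and Sdha and Tfrc lay outside it at 2.72 and -3.20.

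Genes that respond within minutes of handling differed in both directions. Hspa1a and Hspa1b, inducible heat shock proteins, had 18.9 ± 5.11 and 55.8 ± 14.9 CPM in kidney against 0.451 ± 0.144 and 1.28 ± 0.517, and Jun had 52.9 ± 6.65 against 17.7 ± 1.70. Fos had 5.62, 5.80, 4.25, 4.16 and 8.31 CPM in marrow and 3.81, 2.55, 0.660, 0.398 and 1.76 in kidney, Atf3 3.83 ± 0.721 against 0.874 ± 0.210 and Ier2 43.6 ± 2.80 against 16.1 ± 1.22. The part of collection in these values was not tested.

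Genes of the mouse kidney that depend on sex hormones were all higher in kidney, 9 of 9, and 6 were at no more than 3 counts in every marrow library. Kap had 8332, 7951, 9708, 9344 and 9799 CPM in kidney, Cyp2j13 had 369 ± 25.6, Slco1a1 had 273 ± 28.9 and Cyp4a12a had 170.5 ± 29.4. Prlr, the prolactin receptor, which is stronger in the female kidney, had 8.59 ± 3.85 CPM and Slc7a12, also stronger in females, 3.61 ± 1.94.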

How the data were processed

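RNA from vehicle kidney and vehicle bone marrow was sequenced in 5 libraries per tissue, and 10 treated libraries were not used here. The authors deposited raw read counts per Ensembl gene in a table for each tissue, with no normalization. The labels describe removal of ribosomal RNA, random hexamers and ligated adapters, whereas the study's methods name a SMARTer kit. The methods give alignment with STAR to an Ensembl release and unique, unambiguous reads counted in Partek Flow, whereas the submitters' processing notes name STAR, Subread featureCounts and Salmon. The strand setting is not given in the sources used here. RNA integrity was above 7 per the methods.

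From 55774 lines per table, 287 repeated identifiers and 1 line without a value were removed, leaving 55486 genes. Of these, 55227 were placed on GRCm38 with GENCODE M21, which gave exon lengths and exon overlaps. Biotypes were those given with the deposited counts. Of 503 genes checked, 6 shared more than 50% of their exon bases with another gene. Among low counts, up to 20, 67.2 to 72.8% of genes had an even count, so a count is not always 1 independent fragment. Totals of 24393007 to 39293176 counts per library set the precision, and floors cover counting error only, whereas intervals of a difference also hold the spread between libraries.

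Low genes were dropped by filterByExpr (minimum count 10), libraries were scaled by TMM, and the test was edgeR's quasi-likelihood test (edgeR 4.0.16, limma 3.58.1, R 4.3.3) with tissue as the term, without the replicate number. P-values were adjusted by the Benjamini-Hochberg method over all 21703 tested genes, and the threshold was an adjusted p under 0.05 with a fold change beyond 1.5, as in the study's own cutoff. A gene was of like level when its 95% interval lay inside 1.5-fold. The scripts were tested on simulated data. The labels say biological replicates without naming mice, and deviations of libraries with the same number correlated at -0.06 to 0.0182, so the numbers were not taken as pairs. No library pair agreed within sampling noise (at least 7.51 chi-square per degree of freedom).

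Genes were named by rule. In each tissue these were, among protein-coding genes called higher there, the 12 with the highest count per kilobase. From the same genes came the 8 with the largest ratio among those of at least 10 CPM. The 6 most abundant protein-coding genes of like level were added, and in each of 52 lists up to 6 members with the highest level. Every member against the direction of its list was named too, and isozyme, pump, anhydrase, hormone and receptor members in full. Some genes that this rule names are not reported here, although the list counts include them. The members and lists were chosen with earlier results of these data known. Alternatives were DESeq2 1.42.0, other scalings and filters, a replicate block, a Y-chromosome covariate and leaving out each library. Promoters came from RefSeq (GRCm38.p6). Python 3.11.15 and matplotlib 3.10.9 were used for tables and plots.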

Additional observations from a re-analysis of the deposited data

Results flagged for a closer look

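Of 325 groups of 5 libraries examined, for named genes and summed lists, 15 (4.62%) had a highest or lowest library whose gap to the next, divided by the range of the group, was above Dixon's critical value of 0.71. Chance gives about 1 in 20 such groups, so the number is near what chance gives.

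In kidney, Lrp2 had 6672 CPM in kidney 5 with the others at 4575 to 4954, and the summed proximal tubule list was 27613 CPM there with the others at 24568 to 25202. Lrp2 is a member of that list. Ngp and Car1 each had 0.176 CPM in kidney 5 and 0 in the others. Kidney 4 was high for Eno3 (6.58 CPM, others 5.78 to 5.998) and for Fxyd4 (31.6 CPM, others 23.3 to 25.5) and low for the summed fibroblast and pericyte list (136 CPM, others 152 to 155). Kidney 1 was low for Kitl (14.3 CPM, others 17.4 to 18.6) and high for Agtr1a (43.5 CPM, others 35.1 to 37.2).

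In marrow, Actb had 9768 CPM in marrow 4 with the others at 7620 to 8240, and the summed reference genes, which include Actb, were 15152 CPM there with the others at 11985 to 12866. Wnk1 was low in the same library at 779 CPM with the others at 856 to 870.2. Ltf was low in marrow 1 at 2935 CPM with the others at 3409.7 to 3574. G6pc had 0.0967 CPM in marrow 2 with the others at 0 to 0.0261, and the summed intercalated cell list was low in marrow 3 at 26.9 CPM with the others at 30.9 to 32.3.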

How the results depend on the processing

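Scaling moved the centre of the comparison. Relative to TMM, the median log2 difference over all genes was lower by 0.385 with library totals alone and by 0.241 with upper quartile scaling, and genes higher in kidney made up 38.4% and 41.5% of calls instead of 47.4%. Counts of calls under these scalings, DESeq2 (16225), size factors in edgeR (16248), omission of mitochondrial, hemoglobin and immunoglobulin genes (16067), no low-count filter (20758 of 39345), a fold threshold of 2 (13580), a test against 1.5-fold (14863) and a Y-chromosome covariate (12917) were within 1.5 times the count given. Tissue and the Y covariate correlated at -0.904, so that fit has little left to separate them.

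Requiring 10 counts in every library, which removes the genes read in 1 tissue, left 14826 tested and 10361 called, 5087 higher in kidney and 5274 in marrow. Under this filter 19 of 52 lists instead of 10 had no majority in either direction, 7 of them because no member was left to test, and the medians of intercalated cell (-0.47), platinum and copper transporters (-0.19) and hormones and cytokines (-1.45) turned negative because their kidney-restricted members were gone. Like-level genes numbered 5402 with a 2-fold interval and 1066 with the Y covariate. Of the 2420 like-level genes, 1196 were among the 2384 found with library totals alone. Genes read in 1 tissue numbered 146 and 80 at 10 CPM, and 133 and 136 at 0 counts in the other tissue, for kidney and marrow.

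Leaving out each library in turn gave 16325 to 16882 calls, 7687 to 7944 higher in kidney and 8545 to 9178 in marrow, 2269 to 2423 like-level genes, 350 to 384 and 391 to 434 genes read in 1 tissue, 21 to 22, 20 to 21 and 9 to 11 lists with a kidney, a marrow and no majority, and common coefficients of variation of 8.60 to 9.70% and 10.0 to 12.9%. The replicate number as a block gave 16030 calls and changed no call of the 487 genes in the lists. Same-numbered libraries correlated at -0.06 to 0.0182 in their deviations, other pairs at -0.172 to 0.128, and 0 of 5 libraries correlated best with its own number. Of these 487 genes 415 were called, and none of the called genes turned its direction under any alternative. Of the 72 not called, 24 turned sign with library totals alone and 15 with upper quartile scaling. With library totals alone 12 lost and 26 gained a call.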
